A study of Triticum aestivum with 4 samples.

Results

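The 8 genes of glutathione metabolism followed here in roots and leaves of drought-stressed wheat were GSH1, GGT1, OXP1 and GR1, which make, break down, recycle or reduce glutathione, and the glutathione transferases GSTU18, GSTU25, GSTL3 and ERD9. The members were the assembled transcripts, called isotigs, whose best match in the deposited annotation was an Arabidopsis thaliana protein with 1 of these symbols at an E-value of at most 0.001. These were 41 of 32085 isotigs in the root assembly and 24 of 19899 in the leaf assembly, and they gave 8 of the 10711 genes with an Arabidopsis match in either tissue. GGT1 is also used in the annotation for another locus, AT1G23310, described there as a glutamate:glyoxylate aminotransferase, and the 2 leaf isotigs matched to it (0 drought and 4 control reads) were left out. The names are those of the Arabidopsis proteins, so 1 name may cover several wheat genes and the gene copies of the wheat genomes.

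The plants were Triticum aestivum cultivar MGS1 Aliança at the tillering stage, 5 weeks old, grown in a glasshouse with 3 seeds per pot. In the drought group watering at 75% of field capacity lasted 2 weeks and water was then withheld for 3 weeks, whereas the control group received water at 100% of field capacity for all 5 weeks. Root and leaf RNA was sequenced by Roche pyrosequencing in 4 libraries, root drought, root control, leaf drought and leaf control. The 3 plants of a pot were pooled, and how many pots went into a library is not stated. There was 1 library per group, so no difference given here has a replicate check, and every interval covers counting error only.

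Glutathione is a tripeptide of glutamate, cysteine and glycine that buffers the redox state of plant cells. Glutamate-cysteine ligase, encoded by GSH1 in Arabidopsis, catalyses the first and rate-limiting step of its synthesis. Glutathione disulfide reductase returns the oxidised form to the reduced one. The gamma-glutamyl transferase GGT1 acts on glutathione and its conjugates outside the cell. In the cytosol gamma-glutamyl cyclotransferases release 5-oxoproline, which 5-oxoprolinase (OXP1) opens to glutamate. Glutathione transferases attach glutathione to reactive or foreign molecules, and the tau, phi and lambda classes are plant classes of the family.

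The root libraries held 300665 reads under drought and 305731 in the control, and the leaf libraries 299134 and 319997 in the same order. Reads assigned to genes with an Arabidopsis match, the totals used for genes, were 95923 in root drought, 108532 in root control, 62632 in leaf drought and 83357 in leaf control. A gene was called up- or down-regulated at an unadjusted p under 0.001 in the MARS model, a test of the log ratio of reads given the mean log reads, which compares 2 libraries and not the conditions. In leaves 355 genes were called up-regulated and 181 down-regulated, and this split turned to 177 and 317 with TMM-scaled totals. The median log2 difference of leaf genes with at least 10 reads was 0.49, against 0.02 in roots, and the leaf value lay between -0.07 and 0.22 with the 4 other totals tried. Reads of 14 genes that mark green tissue summed to 2944 per 100,000 gene reads in leaf drought and 14175 in leaf control (10 of 14 found), and to 1.04 in root drought and 23.0 in root control (1 of 14 found, with RCA, RBCS1A and 11 others without an isotig). Reads of 11 genes that mark roots summed to 34.4 per 100,000 in root drought and 427 in root control (6 of 11 found, with CASP1, NRT2.1, NRT2.5, SULTR1;1 and AMT1;2 without an isotig), and to 9.58 in leaf drought and 48.0 in leaf control (4 of 11 found). The marker levels thus differed between drought and control in both tissues, and their part in the results below was not tested. Fewer cells of a type and less RNA per cell cannot be told apart in these libraries.

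In roots 6 of the 8 genes differed between the drought and control libraries, with 3 called up-regulated (GSH1, OXP1 and GSTL3) and 3 called down-regulated (GGT1, GSTU18 and GSTU25). Over all 9199 root genes, 3.63% were called up-regulated and 5.16% down-regulated. In leaves 1 of the 8 genes, GSTL3, was called up-regulated and 0 were called down-regulated, beside 5.06% and 2.58% of all 7012 leaf genes. The study singled out these genes for their response in the same libraries, so the counts are not independent evidence of a response. The median log2 difference over the members with at least 10 reads was 0.08 in roots (8 genes) and 1.44 in leaves (5 genes), beside medians of 0.02 and 0.49 over all genes of those tissues. The leaf counts were low, and GGT1, OXP1 and GSTU25 each had under 10 leaf reads over both libraries. If libraries of a group are assumed to vary by a coefficient of 0.2, the root call of GSH1 was lost, and at 0.4 GGT1 in roots was the 1 member still called.

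**Figure D1:**
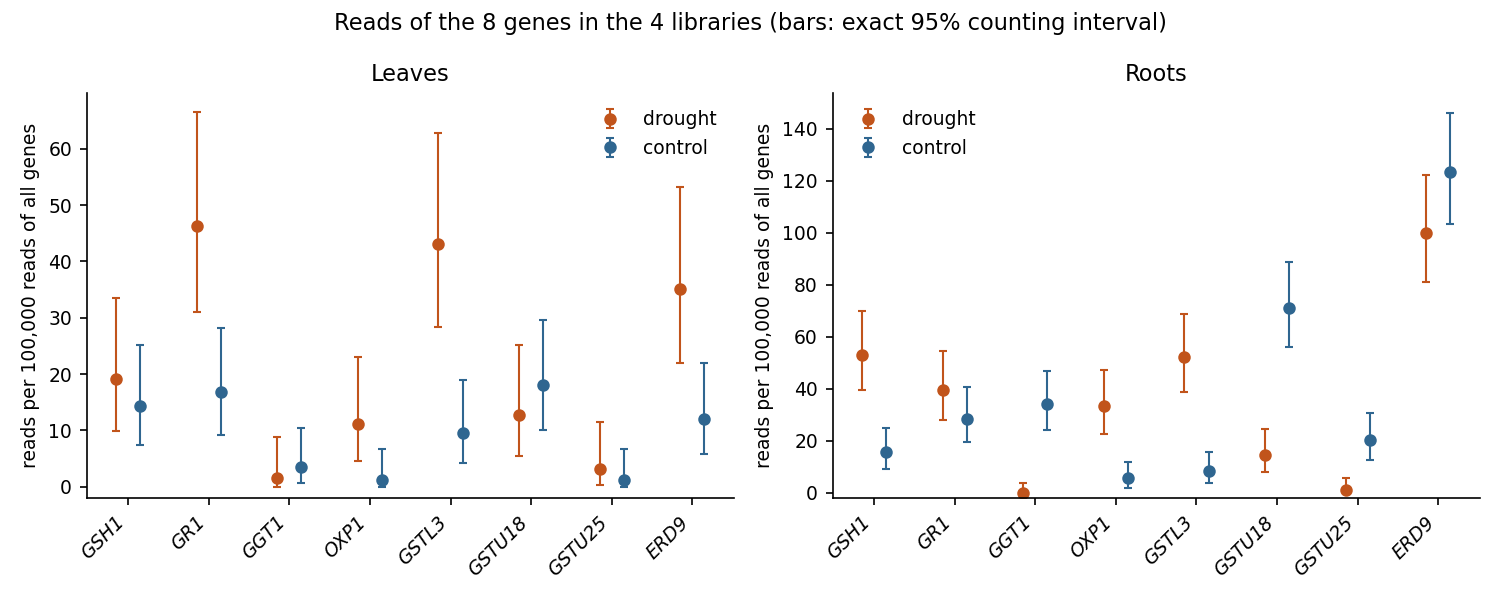
Reads per 100,000 gene reads of each of the 8 genes (vertical axis, linear) in leaves (left panel) and roots (right panel), with drought and control libraries side by side and bars for the exact 95% counting interval of 1 library. In roots the intervals of GSH1, OXP1 and GSTL3 lie higher under drought, those of GGT1, GSTU18 and GSTU25 lie lower, and ERD9 stands highest in both libraries at 96 and 134 reads.

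Synthesis was represented by GSH1 (AT4G23100), the glutamate-cysteine ligase. It had 51 reads in root drought and 17 in root control, and 12 reads in each leaf library. In roots this was 3.39-fold higher under drought (95% interval 1.93 to 6.27) and called up-regulated, whereas the leaf ratio of 1.33 had an interval of 0.547 to 3.24. Nearly all root reads came from isogroup00931 (an isogroup is a set of isotigs assembled from shared contigs), whose GSH1 isotig matched residues 76 to 522 of the Arabidopsis protein at 82% identity. That isogroup also holds an isotig matched to AT2G09990, and its own total of 69 drought and 24 control reads includes those reads. Here and below, folds and calls of single isogroups used the reads of all isogroups as totals, not the gene totals. These isogroup totals were 199622 in root drought, 202624 in root control, 183141 in leaf drought and 203328 in leaf control. Isogroup folds and gene folds are therefore not on the same scale. The leaf reads came from 2 shorter isogroups that covered residues 292 to 522 and 79 to 168, with 9 and 12 reads in the first and 3 and 0 in the second, drought before control. GSH2, which encodes the enzyme of the second step in Arabidopsis, had 2 drought and 0 control reads in leaves and no isotig in roots.

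Reduction was represented by GR1 (AT3G24170), annotated as a peroxisomal and cytosolic glutathione disulfide reductase. GR1 had 38 reads in root drought and 31 in root control, and 29 reads in leaf drought and 14 in leaf control. Neither difference was called, at 1.39-fold in roots (0.840 to 2.31) and 2.76-fold in leaves (1.41 to 5.65). The leaf interval excluded 1. GR1 was called in leaves once genes with under 10 reads were left out, or with a Benjamini-Hochberg threshold. It was also called with reads summed over all isotigs or with an E-value of at most 1e-30. The summed count, 170 drought and 76 control reads, repeats reads shared by 6 isotigs of 1 isogroup. That isogroup's own total was 29 and 16, 2.01-fold (1.06 to 3.97) on isogroup totals and not called. With TMM totals GR1 in leaves had a log2 ratio of 0.90 instead of 1.46 and was not called. The root reads came mainly from a pair of near full-length isogroups at 71% identity. Isogroup04784, which spans residues 1 to 499, had 17 drought and 5 control reads (3.45-fold, 1.22 to 11.96, not called), while isogroup01942 had 20 and 19. A further isogroup, isogroup00742, matched GR1 over residues 94 to 136 only, and its other isotigs matched another gene, diexf. Without it, a choice made after its values were seen, GR1 had 36 drought and 24 control reads in roots, 1.70-fold (0.985 to 2.97). In leaves all GR1 reads came from 1 isogroup, which also holds isotigs matched to AT5G42070.

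Breakdown outside the cell was represented by GGT1 (AT4G39640), which the annotation places in the cell wall and apoplast. GGT1 had 0 reads in root drought and 37 in root control, all in 1 isogroup whose longer isotig of 1912 bases matched residues 25 to 572 at 63% identity. It was called down-regulated, and against a floor of 3 reads in the drought library it was at least 10.9-fold lower under drought. In leaves there were 1 drought and 3 control reads, too few to show a difference at this depth. GGT4, another gamma-glutamyl transferase gene of the family, had 1 drought and 9 control reads in roots and was not called. It is not counted here as a gene of breakdown outside the cell.

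Breakdown in the cytosol was represented by OXP1 (AT5G37830), the ATP-dependent 5-oxoprolinase. OXP1 had 32 reads in root drought and 6 in root control, and 7 reads in leaf drought and 1 in leaf control. The root difference of 6.03-fold (2.49 to 17.7) was called up-regulated. The leaf ratio of 9.32 had an interval of 1.20 to 420 and was not called. Both root isotigs belong to 1 isogroup, are 3917 and 3915 bases long in the assembly, and match residues 1 to 744 of the 1266 residues of the Arabidopsis protein at 76% identity. In roots the genes for the extracellular and the cytosolic enzyme thus differed in opposite directions, with GGT1 lower and OXP1 higher under drought.

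Among the transferases, GSTL3 (AT5G02790), of the lambda class, was the only 1 of the 8 genes called in both tissues. GSTL3 had 50 reads in root drought and 9 in root control, and 27 reads in leaf drought and 8 in leaf control. It was 6.29-fold higher under drought in roots (3.06 to 14.5) and 4.49-fold higher in leaves (1.99 to 11.4). Its main root isotig, of 1047 bases, and its main leaf isotig, of 1118 bases, aligned to the same residues, 25 to 233, with the same bit score of 274 and the same identity of 60%. These main isogroups held 50 drought and 6 control reads in roots and 26 and 6 in leaves. A second isogroup with 0 drought and 3 control reads in roots, and another with 1 and 2 in leaves, ran in the opposite direction on very few reads. Without them the fold was 9.43 in roots (4.04 to 26.9) and 5.77 in leaves (2.32 to 17.1). This choice was made after their values were seen, and leaving out reads that run the other way raises a fold by construction. The leaf call was lost with TMM totals and with an assumed coefficient of variation of 0.2 between libraries.

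GSTU18 (AT1G10360), of the tau class, had 14 reads in root drought and 77 in root control, and 8 reads in leaf drought and 15 in leaf control. In roots it was 4.86-fold lower under drought (2.73 to 9.31) and called down-regulated, while the leaf ratio was 0.710 (0.261 to 1.78). The root reads were spread over 13 isogroups, of which 12 had a lower share under drought, 7 had no drought read and 11 had under 10 reads. Only isogroup03121 was called on its own, with 1 drought and 17 control reads. Isogroup12174 was the exception to the direction, with 5 drought and 4 control reads. Isogroup01600, with 0 drought and 4 control reads, also holds an isotig matched to GSTU16, a further tau transferase. In leaves 10 of the 15 control reads came from isogroup04447, which had no drought read. Without it, a choice made after its values were seen, GSTU18 had 8 drought and 5 control reads (2.13-fold, 0.614 to 8.27). The leaf direction thus rested on that isogroup.

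GSTU25 (AT1G17180), also of the tau class, had 1 read in root drought and 22 in root control, and 2 reads in leaf drought and 1 in leaf control. The root level was 19.4-fold lower under drought (3.14 to 802) and was called down-regulated. Its root reads came from 2 isogroups with 11 control reads each, 1 with no drought read and 1 with 1, and neither was called alone. The root call was lost when the most-read isotig was counted alone (1 drought and 11 control reads). The leaf isotig shares isogroup00502 with isotigs of GSTU19, a further tau transferase, and that isogroup as a whole had 18 drought and 6 control reads, so leaf reads of the 2 genes were not fully separated.

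**Figure D2:**
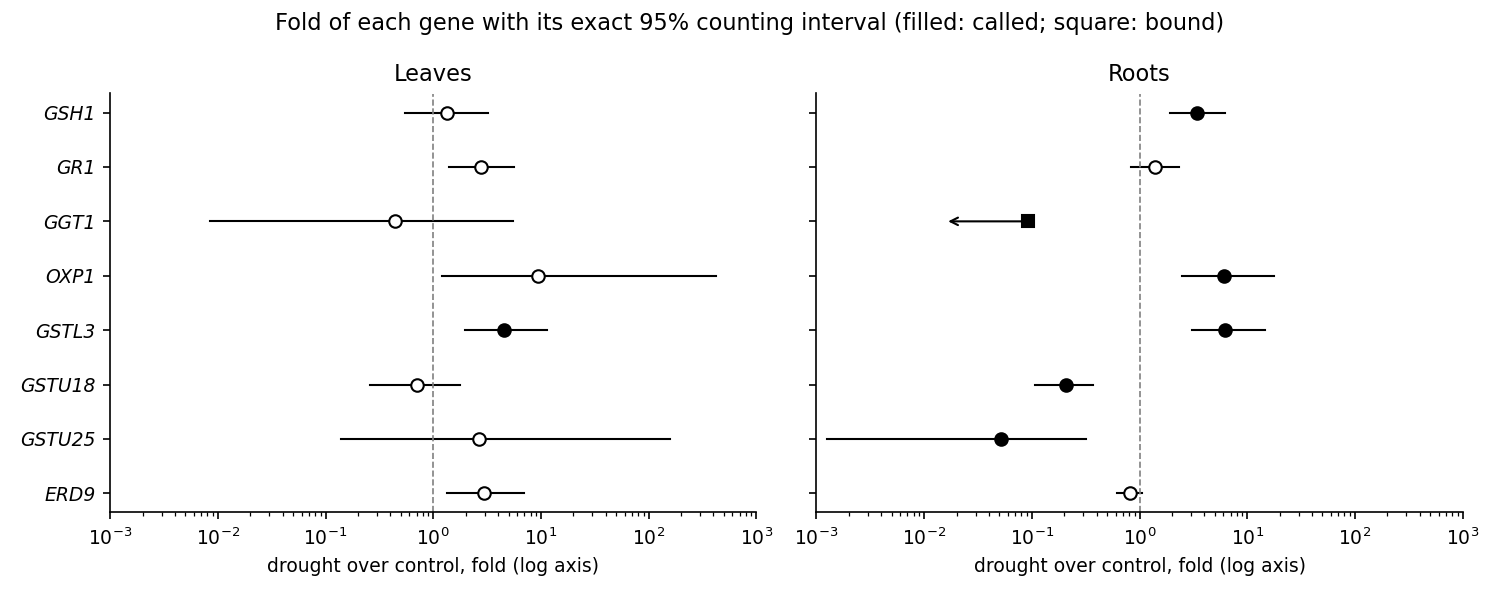
Fold of drought over control (horizontal axis, log scale) for each gene in leaves (left) and roots (right) with exact 95% counting intervals, filled symbols for called genes and a square with an arrow for the bound of GGT1 in roots. GSTL3 is filled in both panels, whereas OXP1 lies to the right of 1 in both panels but is filled in roots alone, where it had 32 and 6 reads.

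ERD9 (AT1G10370), a tau transferase first named for early response to dehydration in Arabidopsis, had 96 reads in root drought and 134 in root control, and 22 reads in leaf drought and 10 in leaf control. Its deposited GO terms include negative regulation of the response to water deprivation, lateral root development and response to salt stress. Neither tissue was called, with a ratio of 0.811 in roots (0.617 to 1.06) and of 2.93 in leaves (1.33 to 6.93). ERD9 was called up-regulated in leaves with a Benjamini-Hochberg threshold or with its most-read isotig alone (18 drought and 5 control reads). It was also called with reads summed over all isotigs (49 and 18), which repeats reads shared by 3 isotigs of isogroup00494. That isogroup's own leaf total was 19 and 5. The small root ratio summed transcripts that went opposite ways. Of 12 root isogroups, 3 had a higher and 9 a lower share under drought, and 4 were called on their own, beside 1.99% of all root isogroups called up-regulated and 2.82% called down-regulated.

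The ERD9 isogroup with the most root reads, isogroup09641, had 70 drought and 28 control reads (2.54-fold higher, 1.62 to 4.09) and was called up-regulated. It held 42.6% of the root reads of ERD9. The 3 others called on their own were down-regulated, isogroup11560 with 2 drought and 27 control reads (13.3-fold lower, 3.34 to 115), isogroup03121 with 1 and 17, and isogroup12211 with 1 and 16. Isogroup11172 had 0 drought and 12 control reads and missed the threshold, while isogroup10895 had 12 drought and 4 control reads and was not called. Without isogroup09641, a choice made after its values were seen, ERD9 had 26 drought and 106 control reads in roots, was 3.60-fold lower under drought (2.33 to 5.77) and was called down-regulated. Its most-read isotig alone was called up-regulated, so the direction given for ERD9 in roots depended on which isotigs were counted.

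**Figure D3:**
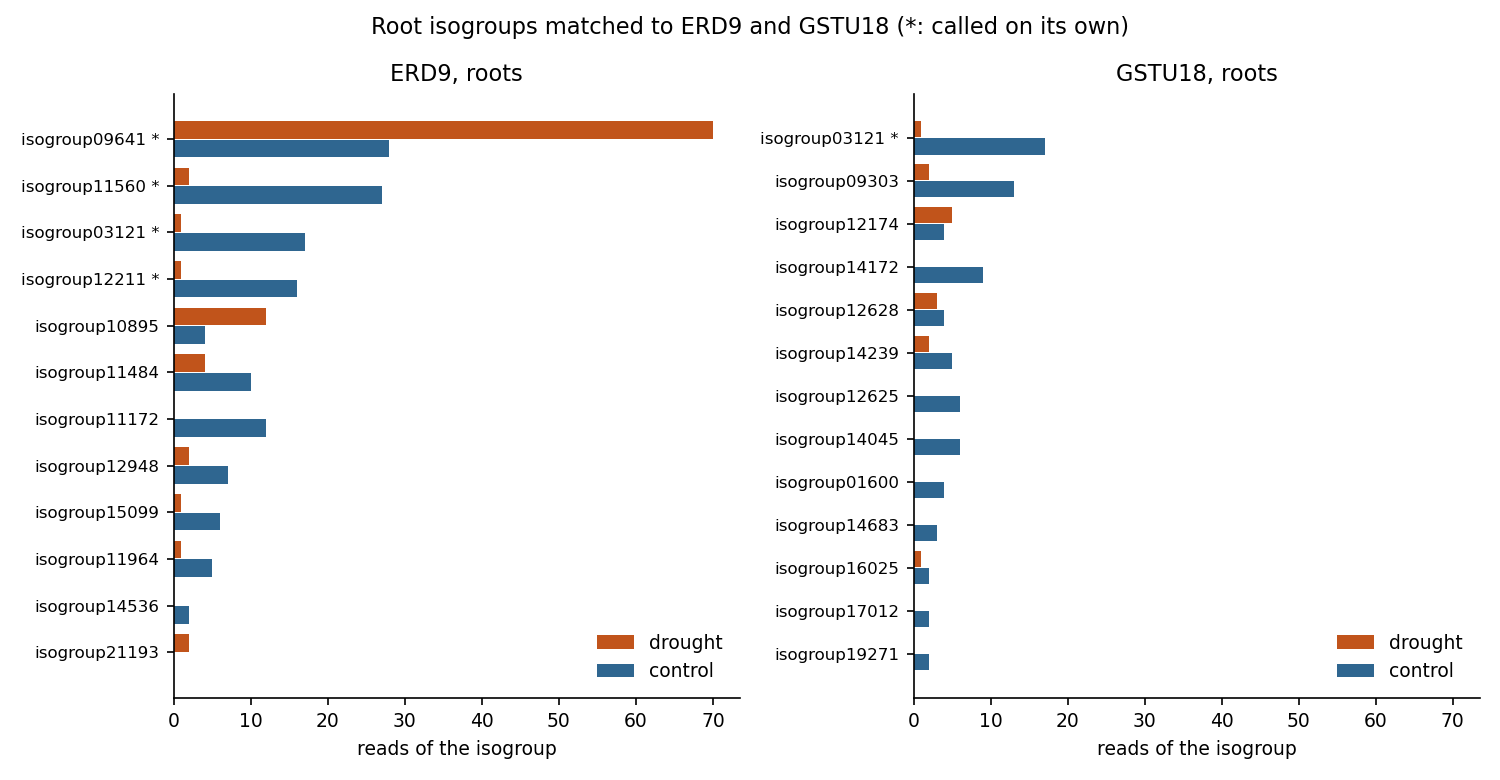
Reads of each root isogroup matched to ERD9 (left) and GSTU18 (right), with the drought bar above the control bar, isogroups in order of total reads and an asterisk for those called alone. For ERD9, isogroup09641 has 70 drought and 28 control reads while most others have more control reads, and for GSTU18 12 of 13 isogroups have more control reads than drought reads.

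Isogroup03121 holds 1 isotig matched to ERD9 and 1 matched to GSTU18, and its 1 drought and 17 control reads were counted for both genes. Without it ERD9 had 95 drought and 117 control reads in roots and GSTU18 had 13 and 60, still 4.08-fold lower (2.21 to 8.10) and called down-regulated. ERD9 and GSTU18 are neighbouring loci in Arabidopsis numbering, and the root isotigs matched either protein at only 29% to 60% identity, and since 1 best match is listed per isotig, how close a transcript is to the other protein is not known here. Over all 35 root isogroups of the 8 genes, 10 had a higher and 25 a lower share under drought, and 18 had under 10 reads. Of the 35, 4 were called up-regulated and 4 down-regulated, beside 1.99% and 2.82% of all root isogroups. Most of the 35 were those of ERD9 (12) and GSTU18 (13), with isogroup03121 under both names.

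In leaves ERD9 was carried by 3 isogroups. The largest, isogroup00494, had 19 drought and 5 control reads (4.22-fold, 1.52 to 14.5) and was not called on isogroup totals. Its most-read isotig alone, with 18 and 5 reads, was called on other totals. The log2 ratio was 2.18 for that isotig and 2.08 for the isogroup, so the 2 calls are not on the same scale. The isotigs of isogroup00494 aligned to residues 5 to 224 with bit scores of 194 to 196. The root isotig of isogroup09641 aligned to the same residues with a bit score of 193. The leaf isogroup08584, with 0 drought and 2 control reads, aligned to residues 3 to 217 with the bit score of 181 and identity of 49% also seen in the root isogroup11560, which had 2 and 27. The assemblies were made separately, so these matches in position and score do not show that the transcripts are the same. Of the 15 leaf isogroups of the 8 genes, 9 had a higher and 6 a lower share under drought, with 1 called up-regulated, 0 called down-regulated and 9 under 10 reads, beside 2.07% and 2.18% of all leaf isogroups called in those directions.

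The drought effects in leaves and roots were then compared directly for the 5 genes with at least 10 reads in each tissue, by the difference of the log2 ratios (leaf minus root) and its counting error. ERD9 was the only 1 of the 5 that passed an adjusted p of 0.05 over the 1991 genes tested, with a difference of 1.81 (0.69 to 2.93) on the log2 scale, from a log2 ratio of 1.51 in leaves and -0.30 in roots. Over all genes tested, 14.4% passed with a higher value in leaves and 2.11% with a lower one. GSTU18 had nearly the same difference, 1.79 (0.33 to 3.24), and missed the adjusted threshold. The difference was 0.97 for GR1 (-0.16 to 2.103), -1.32 for GSH1 (-2.70 to 0.05) and -0.48 for GSTL3 (-1.98 to 1.01), and none of these passed. The ERD9 difference did not pass with TMM totals or with the most-read isotig alone.

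Levels were compared between genes as reads per kilobase of isotig and 100,000 gene reads, summed over the isogroups under each name. In roots that was 12 isogroups for ERD9 and 13 for GSTU18, but 1 each for OXP1 and GGT1. The order therefore also reflects how many transcripts share a name, and need not hold for single transcripts. In root drought the order was ERD9 (104), GSTL3 (49.8), GSH1 (26.6), GR1 (21.0), GSTU18 (17.3), OXP1 (8.52), GSTU25 (1.42) and GGT1 (0). ERD9 stood above GSTL3, GSTL3 above GSH1, GSTU18 above OXP1 and OXP1 above GSTU25 beyond counting error, whereas GSH1 and GR1, GR1 and GSTU18, and GSTU25 and GGT1 did not differ beyond it. In root control the order was ERD9 (138), GSTU18 (85.9), GSTU25 (23.7), GGT1 (17.8), GR1 (17.6), GSTL3 (9.35), GSH1 (7.43) and OXP1 (1.41). There ERD9 and GSTU18 each stood above the next gene beyond counting error, as did GSH1 above OXP1. By rank on this scale GSTL3 stood at 2 in root drought and at 6 in root control, and GSTU18 at 5 and 2. In leaf drought the levels ran from 39.8 for GSTL3 and 38.4 for ERD9 to 1.90 for GGT1, and in leaf control from 18.0 for GSTU18 and 14.6 for ERD9 to 0.585 for OXP1. No gene differed from the next in either leaf library beyond counting error.

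The other genes of the pathway were taken from lists of Arabidopsis loci. Of 10 other turnover and reduction genes, 6 were measured in roots and 1 of them was called, AT4G31290, for which the deposited annotation gives no molecular function. AT4G31290 had 213 reads in root drought and 19 in root control, 12.7-fold higher (7.92 to 21.5), and 4 and 2 reads in leaves. No gene of this list was called in leaves, where 6 were measured. GR (AT3G54660), the other glutathione reductase gene, had 13 drought and 3 control reads in roots and 16 in each leaf library and was not called.

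Of 25 other tau transferases, 5 were measured in roots and 3 in leaves and 0 were called in either tissue. The most read of them in roots was GSTU8, with 24 drought and 55 control reads. Of 13 phi transferases, 4 were measured in roots and 1 was called down-regulated, ATGSTF13 with 117 drought and 221 control reads over 13 isogroups (1.67-fold lower, 1.33 to 2.11). ATGSTF13 was not called in leaves, with 81 and 129 reads, and neither were the other 2 phi genes measured there, of which GSTF3 shares isogroup00032 with it. Of 14 transferases of further classes, 7 were measured in each tissue. DHAR2, a dehydroascorbate reductase that uses glutathione to regenerate ascorbate, was the 1 called, up-regulated in roots with 130 drought and 22 control reads (6.69-fold, 4.23 to 11.04). DHAR2 had 6 drought and 25 control reads in leaves and was not called there. Reads of all transferase genes together were 539 in root drought and 665 in root control (20 genes), and 224 in leaf drought and 288 in leaf control (17 genes). These sums count 2 isogroups in each tissue under the names of 2 transferase genes, isogroup01600 and isogroup03121 in roots and isogroup00032 and isogroup00502 in leaves. With each isogroup counted once, an alternative added after the values were seen, the sums were 538 in root drought and 644 in root control, and 197 in leaf drought and 232 in leaf control. All these sums are raw reads, from unequal gene totals of 62632 in leaf drought and 83357 in leaf control. As a share of gene totals, the leaf sums were higher under drought and the root sums lower, counted either way. As a share of library reads the leaf sums were lower under drought, so the leaf direction depended on the totals used. These shares were not tested.

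**Figure D4:**
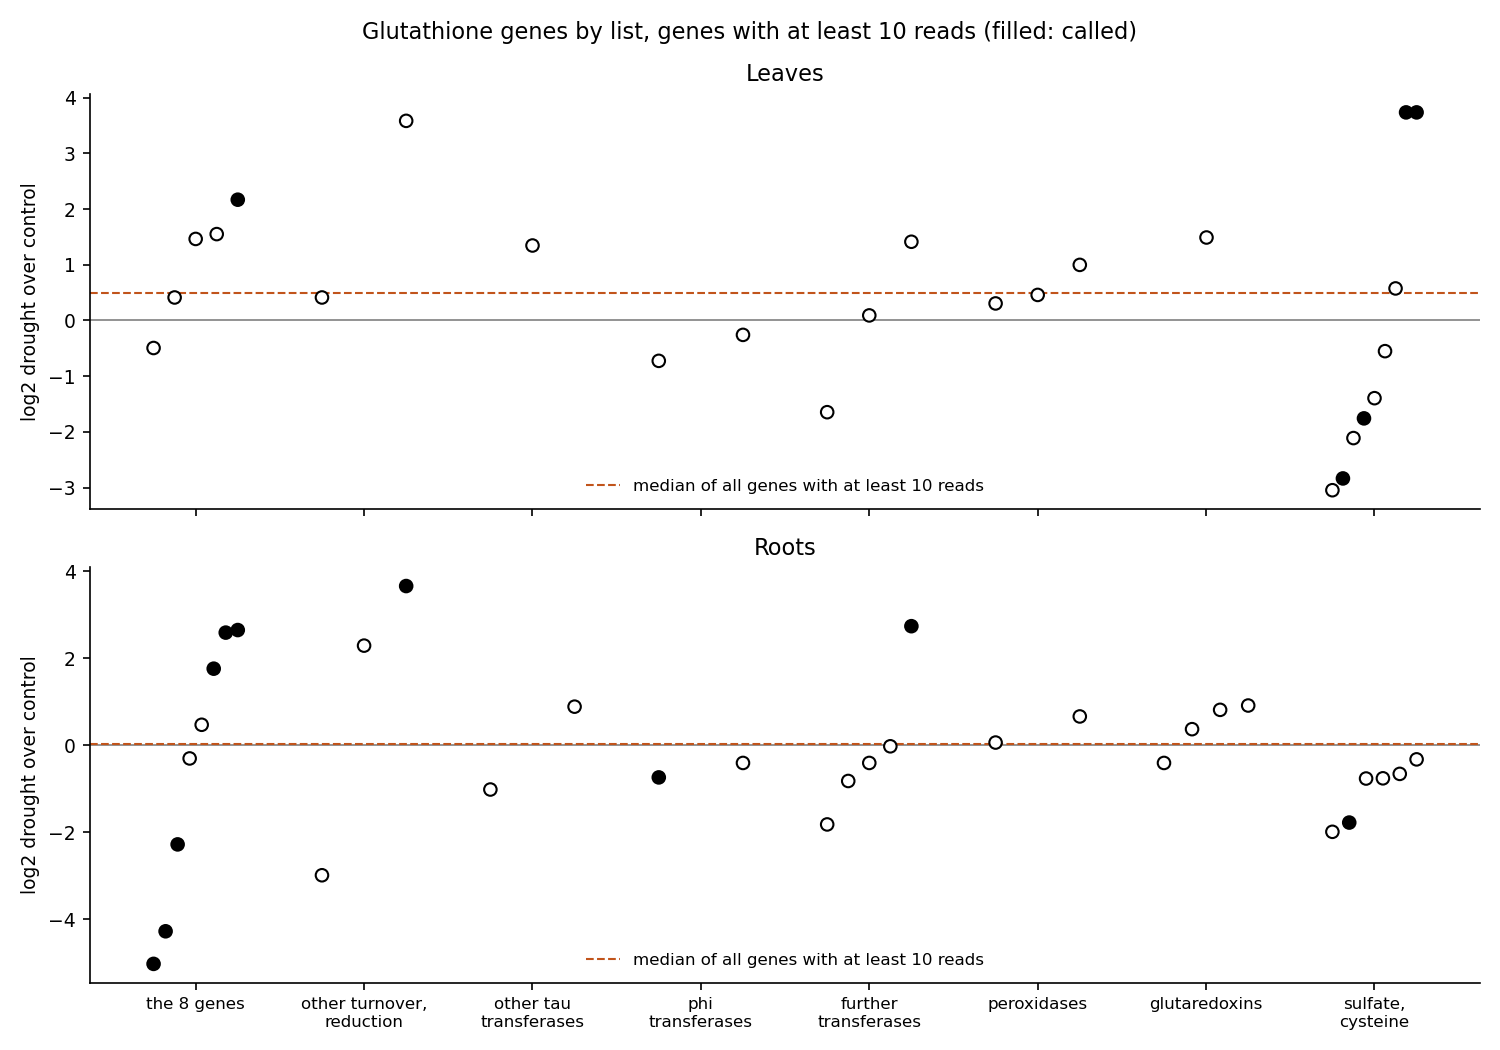
Log2 ratio of drought to control reads (vertical axis) of every gene with at least 10 reads, by gene list, in leaves (upper panel) and roots (lower panel), with filled points for called genes, a dashed line at the median of all genes with at least 10 reads, and a count of 0 (GGT1 in root drought, for example) drawn as 1 read. In roots the called genes of the 8 lie on both sides of 0 and the points of peroxidases and glutaredoxins are all open, and in leaves the sulfate and cysteine list has 4 filled points, 2 on each side.

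Glutathione peroxidases and glutaredoxins gave 0 calls in either tissue among 2 and 6 genes measured in roots and 3 and 6 in leaves. Sulfate assimilation and cysteine synthesis, which supply the cysteine of glutathione, had 10 genes measured in roots with 1 called, OASA1, a cytosolic cysteine synthase gene, down-regulated with 51 drought and 198 control reads (3.43-fold lower, 2.51 to 4.76). In leaves 9 were measured, 2 called up-regulated and 2 down-regulated. APR1, encoding adenosine phosphosulfate reductase, had 20 drought and 90 control reads in leaves (3.38-fold lower, 2.07 to 5.80). APS2, an ATP sulfurylase gene, had 2 drought and 19 control reads in leaves (7.14-fold lower, 1.72 to 63.2). The up-regulated pair was APS1 and APS4, further ATP sulfurylase genes, and their 20 drought and 2 control reads were those of 1 isogroup counted under both names.

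The gene whose pattern over the 4 libraries was nearest to each member was found among 857 genes with at least 20 reads in each tissue, as the Euclidean distance between centred log2 shares. GSTL3 was nearest to OSM34 (distance 0.11), an osmotin-like gene, which had 146 drought and 28 control reads in roots and 88 and 25 in leaves. GSTU18 was nearest to GRF7 (0.16), a 14-3-3 gene, with 13 and 76 reads in roots and 8 and 13 in leaves. GR1 was nearest to AT1G03290 (0.13), GSH1 to AT2G33590 (0.27) and ERD9 to AT1G51200 (0.51), the farthest of these pairs. These distances describe 4 libraries and carry no test.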

How the data were processed

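Total RNA of roots and leaves was sequenced on a Roche GS FLX Titanium instrument. The authors processed reads with GS FLX software 2.8 and used GS De Novo Assembler 2.6 for 1 joint assembly per tissue, and they deposited raw read counts per isotig and per isogroup. They matched isotigs by BLAST to a Gene Ontology sequence database, and the deposited bit score, E-value and percent identity of the best match were used as given. The deposited fold changes and p-values of the authors, and unassembled reads, were not used.

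Members and gene lists were chosen with earlier results of these data known. A gene was 1 Arabidopsis locus at an E-value of at most 0.001, and its count was the sum over isogroups of the isotig with most reads, since isotigs of an isogroup share reads. Drought was tested against control within each tissue over all genes with the MARS model of DEGseq, rewritten in Python 3.11.15 (numpy 2.4.6, scipy 1.17.1), with totals equal to the summed gene counts, 0 set to 1 and an unadjusted p under 0.001. Single isogroups were tested in the same way over all isogroups, with totals equal to the summed isogroup counts. Fold intervals are exact (Clopper-Pearson) 95% intervals given the sum of both counts. With a library at 0 the bound is against 3 reads in that library. The leaf minus root difference used Poisson variances with 0.5 added and Benjamini-Hochberg adjustment over genes with at least 10 reads in each tissue. Genes named were the 8 members, up to 3 called genes per list and tissue with the largest absolute z, and the nearest gene in pattern; single-gene values given beside a list for context were chosen after their values were seen. Alternatives included edgeR 4.0.16 (TMM, and its exact test with an assumed variation) and DESeq2 1.42.0 size factors. The code was tested on simulated data. No sequence of the isotigs was used here.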

Additional observations from a re-analysis of the deposited data

Results flagged for a closer look

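The drought effect on ERD9 differed between the tissues, with a leaf minus root difference of 1.81 on the log2 scale, and passed the test of that difference, as did 14.4% of the 1991 genes tested in the same direction. It did not pass with TMM totals or with the most-read isotig alone. ERD9 had 22 drought and 10 control reads in leaves, and 96 and 134 in roots. The test covers counting error in 4 single libraries, and the root value sums 12 isogroups of which 1 was called up-regulated and 3 down-regulated.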

How the results depend on the processing

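The 3 up- and 3 down-regulated members in roots kept their counts within 1.5 times under 14 of 15 alternatives. The exception was an exact test of edgeR with an assumed coefficient of variation of 0.4, which left 0 up-regulated and 1 down-regulated member, GGT1. Counts within 1.5 times did not always hold the same genes. The most-read isotig alone gave 4 up-regulated root members, with ERD9 added, and 2 down-regulated, with GSTU25 lost. The edgeR test at an assumed variation of 0.2 gave 2 up-regulated root members, with GSH1 lost. The 1 up-regulated member in leaves became 0 in the exact test of edgeR at either assumed variation (0.2 or 0.4) or with TMM totals, 2 with genes of at least 10 reads, with the most-read isotig alone or with an E-value of at most 1e-30, and 3 with Benjamini-Hochberg adjustment or with reads summed over all isotigs. The 1 member whose effect differed between the tissues became 0 with TMM totals or with the most-read isotig alone and 3 with reads summed over all isotigs. Summing over all isotigs, for either of these leaf results, counts reads shared by isotigs of an isogroup more than once. ERD9 in roots reversed to a log2 ratio of 1.44 with the most-read isotig alone. The cause of these changes was not tested, apart from ERD9, where that isotig is the 1 with 70 drought and 28 control reads. No leaf member was called down-regulated in any alternative. No paired analysis was possible because each group had 1 library. Since replicate error is not known, an assumed variation stands in for it. No member had over 134 reads in a library, and none had over 29 in a leaf library.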
